A study of Homo sapiens with 6 samples.

Results

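Apolipoproteins are the proteins of lipoprotein particles, and 10 genes of this group were followed here by their symbols: APOA1, APOA2, APOA4, APOB, APOC1, APOC3, APOE, APOH and APOM, which encode apolipoproteins, and MTTP, whose product loads lipid onto nascent APOB. The table of 27009 genes held a row for 8 of the 10, while APOA4 and APOC3 were not analysed here. RNA had been sequenced from cells labelled Hep3B, a human hepatocellular carcinoma cell line, as 6 libraries in 2 groups of 3. In all 6, the endogenous PD-L1 gene (CD274) had been knocked out. The vector group then carried the empty vector, and the nPD-L1 group carried a mutated PD-L1 that localizes to the nucleus, delivered by lentivirus from a plasmid with a CMV promoter and puromycin selection to give stable cells. The study calls the sequenced samples of a group independent. The labels name no time point or dose and do not say whether the 3 libraries came from separate cultures, so the p-values measure only the spread between these libraries, which may be technical.

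Hepatocytes build very-low-density lipoprotein around a single APOB molecule, which MTTP lipidates in the endoplasmic reticulum together with its partner protein disulfide isomerase (P4HB). The small exchangeable apolipoproteins (APOA1, APOA2, APOC1, APOC3, APOE) move between particles and steer lipases, transfer proteins and receptors, and APOA1 is the main protein of high-density lipoprotein. The genes are known as targets of liver transcription factors, among them HNF4A and the FOXA factors, and several of them are widely used as markers of hepatocytes.

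Values are scaled reads: the number of reads on a gene after division by the size factor of its library. Scaled totals ran from 18082164 to 19682128 per library. In the 4 libraries whose whole reads could be recovered, depth was 17427519 to 22253295 reads on genes, and 3 reads were taken as a detection floor, worth 2.52 to 3.39 scaled reads across the 6 libraries. CD274 itself measured 28.3, 38.4 and 47.8 scaled reads in vector replicates 1, 2 and 3 and 16.8, 19.2 and 30.9 in nPD-L1 replicates 1, 2 and 3. It was not higher in the libraries labelled nPD-L1 (log2 fold change -0.76, SE 0.34, limma adjusted p = 0.338), and whether the counting took in reads of the introduced gene is not given in the sources used here. Every direction between groups below therefore rests on the labels. Vector replicate 2 stood apart: it was the highest of the 6 libraries in 29.5% of the 15076 genes tested, against at most 18.7% for each of the others.

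The members split into 4 genes with transcripts in every library and 4 at or under 3 reads in every library. APOC1, APOH, APOE and APOM were present throughout. APOA1, APOA2, APOB and MTTP, which include the structural protein of very-low-density lipoprotein, its lipid loader and both major proteins of high-density lipoprotein, were near 0 in both groups. None of the 4 genes that could be tested passed the test between groups.

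The promoter windows of 4 members are shown here, with APOA2 and MTTP standing for the genes near 0, and APOC1 and APOH for the ones with transcripts. They are 150 bases that end just before the transcript start in RefSeq (GRCh38.p14), written 5′ to 3′ on the strand of the gene. For MTTP, APOH and APOC1 that start lies downstream of the annotated gene start, from which the distances to other genes further below are taken. Capitals mark matches, on either strand, to any of 4 short motifs. The motif of FOXA factors was searched as TGTTTAC. For nuclear receptors in general the letters AGGTCA were searched. For HNF4A in particular they were AAAGTCC. The TATA box, where a basal factor binds, was searched as TATAAA. APOA2 lies at chr1:161223629-161223778, minus strand. MTTP lies at chr4:99574674-99574823, plus strand. APOH lies at chr17:66229416-66229565, minus strand. APOC1 lies at chr19:44914522-44914671, plus strand.
APOA2: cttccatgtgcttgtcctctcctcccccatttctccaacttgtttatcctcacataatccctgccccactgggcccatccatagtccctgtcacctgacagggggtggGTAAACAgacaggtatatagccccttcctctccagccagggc
MTTP: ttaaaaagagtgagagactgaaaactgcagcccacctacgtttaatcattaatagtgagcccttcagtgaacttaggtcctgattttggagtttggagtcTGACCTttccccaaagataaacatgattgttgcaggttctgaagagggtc
APOH: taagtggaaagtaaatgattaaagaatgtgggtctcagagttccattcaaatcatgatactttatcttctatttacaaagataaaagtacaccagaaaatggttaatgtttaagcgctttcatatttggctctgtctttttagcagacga
APOC1: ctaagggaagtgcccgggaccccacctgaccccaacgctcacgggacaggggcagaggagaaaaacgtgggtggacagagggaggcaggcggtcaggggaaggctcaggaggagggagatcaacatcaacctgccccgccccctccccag

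The APOA2 window held the FOXA motif on the opposite strand (read as GTAAACA), beginning 42 bases before the start. In MTTP, the nuclear receptor motif was read on the opposite strand as TGACCT, 50 bases before the start. MTTP also had TATAAA on the opposite strand at 227 bases before the start, outside the printed stretch. The APOH and APOC1 windows had no match to any of the 4.

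These letters are common: among 35116 promoter windows of 300 bases (250 before to 50 after a start), AGGTCA occurred in 13.8%, TATAAA in 11.5%, AAAGTCC in 3.71% and TGTTTAC in 3.42%. The matches found in members did not overlap one another. 7 of the 10 members had a window in the RefSeq table, and APOA1, APOB and APOC3 had none. APOE and APOM had no match, MTTP had a second window further upstream without one, and APOA4 had AAAGTCC at 134 bases before its start. In base composition the windows ran from 35.0% G and C in APOH and 42.0% in MTTP, through 53.0% in APOA2, to 62.3% in APOC1, with 52.7% to 66.0% in the 3 APOE windows, against a median of 58.7% over all windows. The APOA2 and MTTP windows each held 1 CpG, the APOH window 3 and the APOC1 window 8, where the median was 14. A match is a description of letters and not evidence of binding.

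APOC1 (ENSG00000130208, chr19:44914247-44919349), a small apolipoprotein that activates LCAT and inhibits the transfer protein CETP, was the most abundant member. It measured 696, 1051 and 600 scaled reads in vector replicates 1, 2 and 3 and 749, 816 and 712 in nPD-L1 replicates 1, 2 and 3. The nPD-L1 libraries fell inside the range of the vector libraries, which vector replicates 2 and 3 bounded above and below. The group means were 782.5 ± 237.9 and 759.0 ± 52.9 (SD, n = 3 each). The log2 fold change was -0.0045 with an SE of 0.18 and a 95% interval of -0.41 to 0.40 (limma, adjusted p = 0.994), so changes of up to about those bounds could not be told from none. Without vector replicate 2 the change of APOC1 was 0.23 (adjusted p = 0.318), also not called. A pseudogene copy, APOC1P1, held 1.93 to 7.56 scaled reads, and how the counting split reads between it and APOC1 is not given in the sources used here.

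APOH (ENSG00000091583, chr17:66212033-66256525), beta-2-glycoprotein I, a plasma protein that binds phospholipids, came next. It measured 173, 308 and 169 scaled reads in vector replicates 1 to 3 and 140, 200 and 178 with nPD-L1, in replicate order. Vector replicate 2 was again the highest, and the other vector libraries lay among the nPD-L1 libraries. The log2 fold change was -0.28 (SE 0.24, 95% interval -0.81 to 0.25, limma adjusted p = 0.669), and it fell away to 0.0017 without vector replicate 2.

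APOE (ENSG00000130203, chr19:44905754-44909393), a ligand of lipoprotein receptors, lies on the same strand as APOC1, with the starts 8.49 kb apart. It measured 55.5, 99.4 and 70.7 scaled reads in vector replicates 1 to 3 and 60.5, 64.7 and 46.3 with nPD-L1. The groups overlapped, with the highest value in vector replicate 2 and the lowest in nPD-L1 replicate 3. The log2 fold change was -0.36 (SE 0.26, 95% interval -0.94 to 0.22, limma adjusted p = 0.609) and -0.14 without vector replicate 2.

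APOM (ENSG00000204444, chr6:31652416-31658210), the carrier of sphingosine 1-phosphate on high-density lipoprotein, was the lowest of the 4. It measured 30.3, 62.1 and 32.2 scaled reads in vector replicates 1 to 3 and 24.4, 35.4 and 31.8 with nPD-L1. Apart from vector replicate 2, the values of both groups were interleaved. The log2 fold change was -0.37 (SE 0.33, 95% interval -1.11 to 0.37, limma adjusted p = 0.687) and -0.05 without that library. The APOM annotation shares 290 bases with BAG6 on the opposite strand, a gene at a mean of 3033 scaled reads. The strand setting of the counting is not given in the sources used here, so some of the reads listed for APOM may belong to BAG6.

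**Figure D1:**
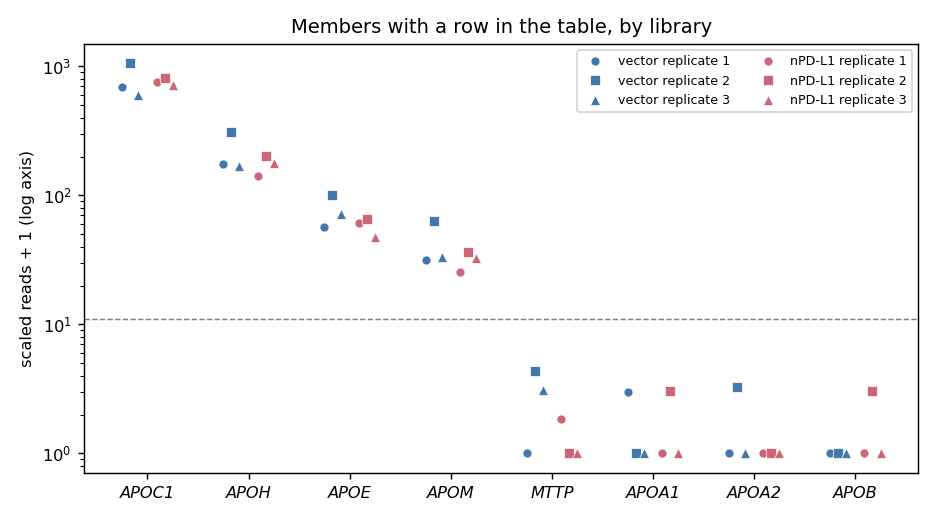
Scaled reads plus 1 (log axis) of the 8 members with a row, 1 point per library, vector in blue and nPD-L1 in red, with a dashed line at 10 scaled reads, the value a gene needed in at least 3 libraries to be tested. APOC1, APOH, APOE and APOM lie above the line in all 6 libraries with vector replicate 2 highest in each, and the other 4 genes lie at or under 3 reads.

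The near-zero members were described and not tested, since no library had more than 3 reads. In vector replicate 1 and nPD-L1 replicate 2 this rests on the assumed size of 1 read. APOB (ENSG00000084674, chr2:21001429-21044073), the scaffold of very-low-density lipoprotein, was at 0 in 5 libraries and at 2.02 scaled reads in nPD-L1 replicate 2, although its annotated exons span 14828 bases. MTTP (ENSG00000138823, chr4:99563761-99623999) measured 0, 3.39 and 2.08 scaled reads in vector replicates 1 to 3 and 0.84, 0 and 0 with nPD-L1. It shares 272 bases with TRMT10A on the opposite strand, whose mean was 233.7 scaled reads. APOA1 (ENSG00000118137, chr11:116835751-116837950) was at 2.02 scaled reads in vector replicate 1 and in nPD-L1 replicate 2 and at 0 in the other 4. APOA2 (ENSG00000158874, chr1:161222292-161223631), the second protein of high-density lipoprotein, was at 2.26 in vector replicate 2 and at 0 in the other 5. The 4 genes together held 0 to 5 reads per library. Values this small give no fold between groups, and at this depth a difference was not detectable.

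Compared per length of annotated exons, the 4 detected members kept the order APOC1, APOH, APOE, APOM in every library. APOC1 averaged 626 scaled reads per kilobase, at percentile 90.8 of the tested genes, and APOH averaged 146, at percentile 65.2. APOE averaged 30.2 per kilobase (percentile 31.0) and APOM 21.7 (percentile 25.4). The levels of APOC1 and APOH did not overlap each other or the rest over the 6 libraries, whereas the ranges of APOE and APOM overlapped, with APOE 1.10 to 1.88 times APOM within a library. APOC1 took 68.6% to 76.8% of all scaled reads of the members in each library, and per kilobase it stood 15.1 to 27.4 times above APOE, its neighbour on the chromosome. Against the floor of 3 reads per library, APOC1 per kilobase in the vector group was at least 2965-fold higher than APOB, which was at 0 in all 3 vector libraries. In the nPD-L1 group it was at least 206-fold higher than APOA2, at 0 in all 3 libraries there. All members together held 874 to 1527 scaled reads per library, with the highest sum in vector replicate 2.

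**Figure D2:**
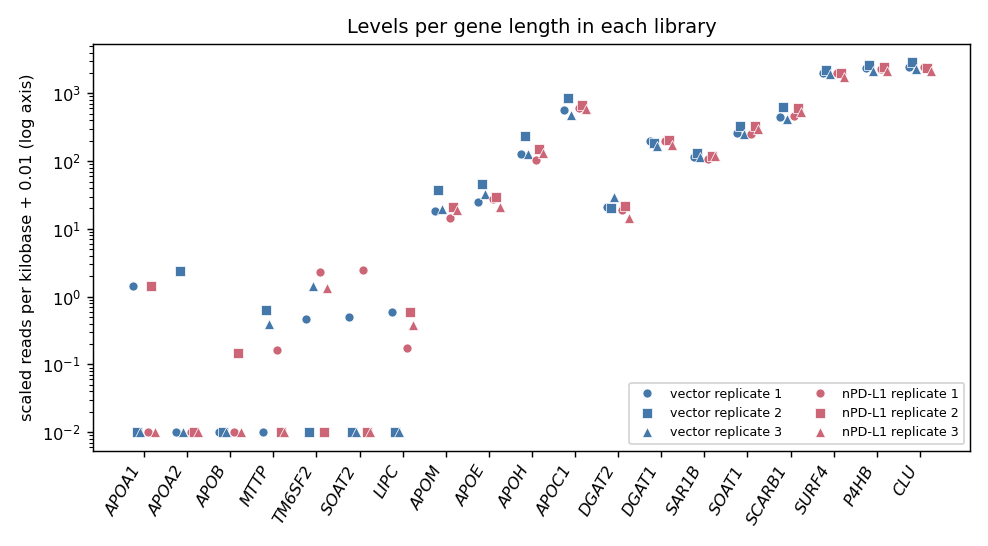
Scaled reads per kilobase plus 0.01 (log axis) of members, partners and receptors in each library, vector in blue and nPD-L1 in red. APOA1, APOA2, APOB and MTTP lie together with TM6SF2, SOAT2 and LIPC at the bottom, APOC1 lies near the receptor SCARB1, and P4HB and CLU are at the top.

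The first question of the design was whether the nPD-L1 libraries differed from the vector libraries in these genes. 0 of the 4 tested members were called by limma at an adjusted p under 0.05, where 4.96% of all tested genes were called (4.04% higher and 0.922% lower in the libraries labelled nPD-L1). At an unadjusted p under 0.05 limma also called 0 of the 4, against 14.2% of all genes. On the 4 libraries with recovered reads, limma, edgeR and DESeq2 each called 0, adjusted or not. They called 1.95%, 1.75% and 2.73% of all genes at an adjusted p under 0.05. The smallest unadjusted p among the members was 0.0838, 0.0909 and 0.0919 in that order. These fits lack vector replicate 1 and nPD-L1 replicate 2 and keep vector replicate 2. They thus differ from the main fit in libraries, and not only in tool. The groups did not overlap in 0 of the 4 members, against 20.6% of all genes. Their median log2 fold change was -0.32, beside -0.02 over all tested genes, and -0.02 without vector replicate 2. On the 4 libraries with recovered reads it was -0.59 with limma, -0.62 with edgeR and -0.62 with DESeq2. All 4 estimates were below 0 with the 6 libraries. APOC1 turned above 0 with trimmed mean of M values scaling (0.0055), without vector replicate 2, without nPD-L1 replicate 1 or 3, and with a trend on gene length taken out of each library (0.07).

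The pattern that the 4 members shared across libraries was the height of vector replicate 2. On the log2 scale they stood above the mean of the other vector libraries there by 0.70 (APOC1), 0.66 (APOE), 0.85 (APOH) and 0.97 (APOM). Gene length moved with this library: the 1511 tested genes of 1.2 to 2.2 kb, the span that holds the 4 members, had a median of 0.29 on the same measure and were highest in vector replicate 2 in 52.3% of cases. The 3963 genes of 7 kb or more had a median of -0.19. The part of length in the members' values was not tested beyond the fit with the length trend removed, in which APOE, APOH and APOM changed by -0.32, -0.20 and -0.30 and none was called.

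The genes whose centred log2 values lay nearest to the members' mean pattern over the 6 libraries, chosen from the 10723 genes that averaged 100 or more scaled reads, were COX14 (root mean square difference 0.0300), RPL22L1 (0.0669), TOMM7 (0.0688), RPS29 (0.0718) and TMEM60 (0.0748). The annotated lengths of 4 of them were 1023 to 2326 bases, while RPS29 is annotated with 9845 bases.

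**Figure D3:**
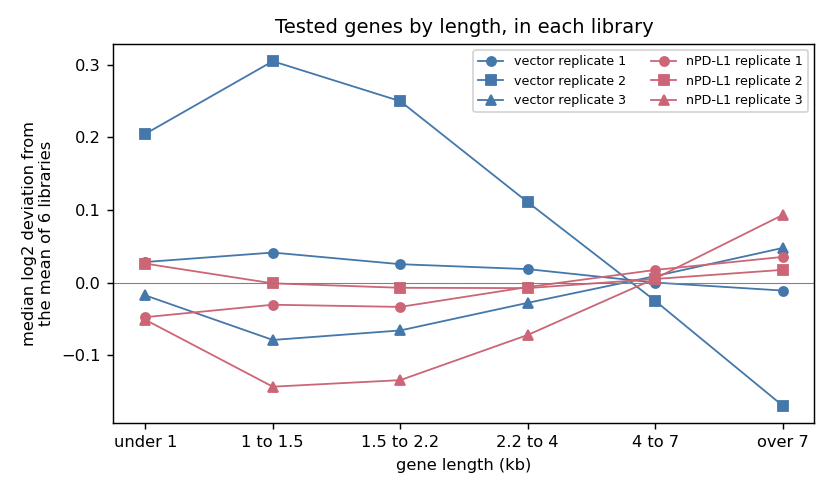
Median log2 deviation of tested genes from their mean over the 6 libraries, by gene length in kilobases, 1 line per library, vector in blue and nPD-L1 in red. Vector replicate 2 is highest for genes under 4 kb (0.31 for 1 to 1.5 kb) and lowest for genes over 7 kb (-0.17), and the lowest median of any other library is -0.14, in nPD-L1 replicate 3.

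Other genes were transcribed close to the members near 0. TOMM40L, whose start is 2.31 kb from that of APOA2, averaged 121 scaled reads per kilobase, and PFDN2, the highest of 15 tested genes within 200 kb of APOA2, averaged 1675. Near APOA1, ZPR1 at 49.9 kb averaged 176 per kilobase. MTTP had TRMT10A at 0.271 kb with 53.4 per kilobase. That distance is from the annotated gene start of MTTP (chr4:99563761), which lies upstream of the printed promoter window (chr4:99574674-99574823). No gene with a row started within 200 kb of APOB. TOMM40, close to APOE and APOC1, averaged 1809 per kilobase. In all, 54 genes within 200 kb of a member were tested, and 2 of them (3.70%) were called, both higher, a share near the 4.96% of all tested genes. BCL3, near APOC1 and APOE, rose by 0.78 (log2, SE 0.10, adjusted p = 0.00126), and on 4 libraries its adjusted p was 0.0714 with limma, 0.0864 with edgeR and 0.0216 with DESeq2. NECTIN4, near APOA2, rose by 2.01 (SE 0.45, adjusted p = 0.0267). Its adjusted p was 0.102, 0.153 and 0.0720 without nPD-L1 replicates 1, 2 and 3, and 0.0958 with limma on 4 libraries.

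The other apolipoprotein genes were as uneven. Of 13 listed genes, 9 had a row and 4 were tested. Limma called 0 of the 4, where it called 4.96% of all tested genes. At an unadjusted p under 0.05 it also called 0, against 14.2% of all genes. The median log2 change of the 4 was -0.05. CLU, apolipoprotein J, a secreted chaperone, was the most abundant of the apolipoprotein genes tested, at 16840 ± 1873 scaled reads in the vector group and 15450 ± 957.5 in the nPD-L1 group (SD, n = 3 each). Per kilobase it stood 3.35 to 4.74 times above APOC1. APOL1, APOL2 and APOL6, of the apolipoprotein L family, were the others tested. APOA5, APOC2 and APOC4, the last 2 from the cluster of APOE and APOC1, were not analysed here.

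Most genes that help to build and export lipoproteins were detected. Of 22 partners, 18 were tested, and 1 was called, higher, where 4.04% of all tested genes were, with a median log2 change of 0.06. At an unadjusted p under 0.05 limma called 5 (FITM2, ABCA1, SORT1, MIA2 and VMP1), all higher, against 14.2% of all genes. The partners were chosen with earlier results of these data known, so neither count is evidence of a surplus. P4HB, the partner of MTTP in lipid transfer and a general folding enzyme, held 11304 to 13707 scaled reads in all libraries. Its log2 change was -0.03 (SE 0.11, 95% interval -0.27 to 0.22, adjusted p = 0.939), and it turned to 0.04 without vector replicate 2 and 0.02 without nPD-L1 replicate 3. In the vector group P4HB per kilobase was at least 10959-fold above the floor of APOB. SURF4, a cargo receptor for lipoproteins, averaged 1966 per kilobase, SAR1B, the GTPase of their transport vesicles, 118, and DGAT1, which makes triglyceride, 188. TM6SF2, which aids lipidation in liver, reached at most 5.04 scaled reads, and SOAT2, the cholesterol esterifying enzyme of hepatocytes, reached the same maximum, while its homologue SOAT1 held 1759 to 2317.

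FITM2, which supports lipid droplet formation, was the partner called at an adjusted p under 0.05. It measured 306, 273 and 288 scaled reads in vector replicates 1 to 3 and 389, 492 and 402 with nPD-L1. All nPD-L1 libraries lay above all vector libraries. The log2 fold change was 0.56 (SE 0.13, limma adjusted p = 0.0400). The call of FITM2 was lost without any single library except vector replicate 2. The adjusted p was 0.110 and 0.0636 without vector replicates 1 and 3, and 0.0858, 0.243 and 0.121 without nPD-L1 replicates 1, 2 and 3. On 4 libraries it was 0.543 with limma, 0.509 with edgeR and 0.716 with DESeq2. With upper-quartile scaling of all 6 libraries it was 0.0561 (limma).

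Among plasma lipases, their inhibitors and HDL enzymes, 5 of 12 genes were tested and 2 were called, both higher (background 4.04%), with a median log2 change of 0.23. At an unadjusted p under 0.05 limma called 2 higher and 1 lower, against 14.2% of all genes. This list too was chosen with earlier results known, so the counts are not evidence of a surplus. ANGPTL4, a secreted inhibitor of lipoprotein lipase, measured 359, 377 and 424 scaled reads in vector replicates 1 to 3 and 4322, 2966 and 3049 with nPD-L1. Every nPD-L1 library lay far above every vector library. The log2 fold change was 3.13 (SE 0.15, limma adjusted p = 7.27e-07). LCAT, which esterifies cholesterol on high-density lipoprotein with APOA1 as its activator, measured 31.3, 30.5 and 44.7 against 78.2, 75.9 and 104. The groups did not overlap, and the log2 fold change was 1.26 (SE 0.25, adjusted p = 0.0138). For LCAT the adjusted p was 0.0701 without vector replicate 1 and 0.0590 and 0.104 without nPD-L1 replicates 1 and 3. On 4 libraries it was 0.144 with limma, 0.191 with edgeR and 0.148 with DESeq2. LIPC, hepatic lipase, stayed at or under 3.03 scaled reads in every library. LPL, the lipase that ANGPTL4 inhibits, was not analysed here.

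Receptors and related genes of lipoprotein uptake did not pass the test. 12 of 14 were tested and limma called 0, where 4.96% of all tested genes were called. At an unadjusted p under 0.05 limma called 1 (MYLIP), against 14.2% of all genes. The median log2 change of the list was 0.04. SCARB1, the receptor for high-density lipoprotein, held 3518, 4812 and 3241 scaled reads in vector replicates 1 to 3 and 3569, 4684 and 4051 with nPD-L1. The groups overlapped, and the log2 change was 0.10 (SE 0.16, 95% interval -0.24 to 0.44, adjusted p = 0.819). The sign of SCARB1 turned without vector replicate 3 (-0.01) and in the fits on 4 libraries (-0.05 to -0.08).

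Among transcription factors known to act on apolipoprotein genes, several changed while the 4 tested members were not called. Of 26 listed, 21 were tested, 6 were higher and 2 lower in the libraries labelled nPD-L1, where 4.04% and 0.922% of all tested genes were. At an unadjusted p under 0.05 limma called 6 higher and 4 lower, against 14.2% of all genes in either direction. The list was chosen with earlier results of these data known, so its counts are a description and not evidence of a surplus over that background. The median log2 change was 0.18. FOXA2, a liver pioneer factor, measured 1856, 1752 and 1953 scaled reads in vector replicates 1 to 3 and 742, 700 and 661 with nPD-L1. It fell by 1.40 on the log2 scale (SE 0.10, adjusted p = 1.23e-05), with no overlap. Its paralogue FOXA1 went the other way, from 262, 242 and 253 to 514, 476 and 510, a rise of 0.99 (SE 0.12, adjusted p = 0.000574). The FOXA motif printed above lies in the window of APOA2, which stayed near 0 in both groups.

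NR5A2, a nuclear receptor of bile acid and cholesterol metabolism, fell by 1.86 (SE 0.28, adjusted p = 0.00285). It measured 243, 124 and 292 scaled reads in vector replicates 1 to 3 and 59.7, 57.7 and 52.1 with nPD-L1. The 3 nPD-L1 libraries lay close together, below the lowest vector library. HNF4A, the central nuclear receptor of hepatocyte genes including APOB, MTTP and APOA1, was low throughout, at 19.2, 11.3 and 6.24 scaled reads in vector replicates 1 to 3 and 51.3, 51.6 and 33.8 with nPD-L1. It rose by 1.91 (SE 0.42, adjusted p = 0.0232) and averaged 3.95 scaled reads per kilobase, at percentile 5.49 of the tested genes. The call of HNF4A was lost without nPD-L1 replicate 1, 2 or 3 (adjusted p = 0.137, 0.116 and 0.0611). It was also lost on 4 libraries, with adjusted p of 0.0621 (limma), 0.0747 (edgeR) and 0.0503 (DESeq2).

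RARA, a retinoic acid receptor, had the largest change of the list. It measured 314, 323 and 366 scaled reads in vector replicates 1 to 3 and 2329, 2105 and 2116 with nPD-L1, with a wide gap between the groups, and rose by 2.71 (SE 0.11, adjusted p = 2.34e-07). The remaining called factors, RXRA (0.57, adjusted p = 0.00942), PPARGC1B (0.92, adjusted p = 0.0310) and CEBPB (0.53, adjusted p = 0.0328), rose by less. Each of these 3 calls was lost without vector replicate 1 (0.0549, 0.156 and 0.135) or nPD-L1 replicate 1 (0.0584, 0.132 and 0.167), and those of PPARGC1B and CEBPB without nPD-L1 replicate 2 (0.106 and 0.161). PPARGC1B was also lost without nPD-L1 replicate 3 (0.145) and CEBPB without vector replicate 3 (0.0722). On 4 libraries, limma, edgeR and DESeq2 called none of these 3 factors. The adjusted p there was 0.11 to 0.193 for RXRA, 0.309 to 0.444 for PPARGC1B and 0.382 to 0.483 for CEBPB.

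**Figure D4:**
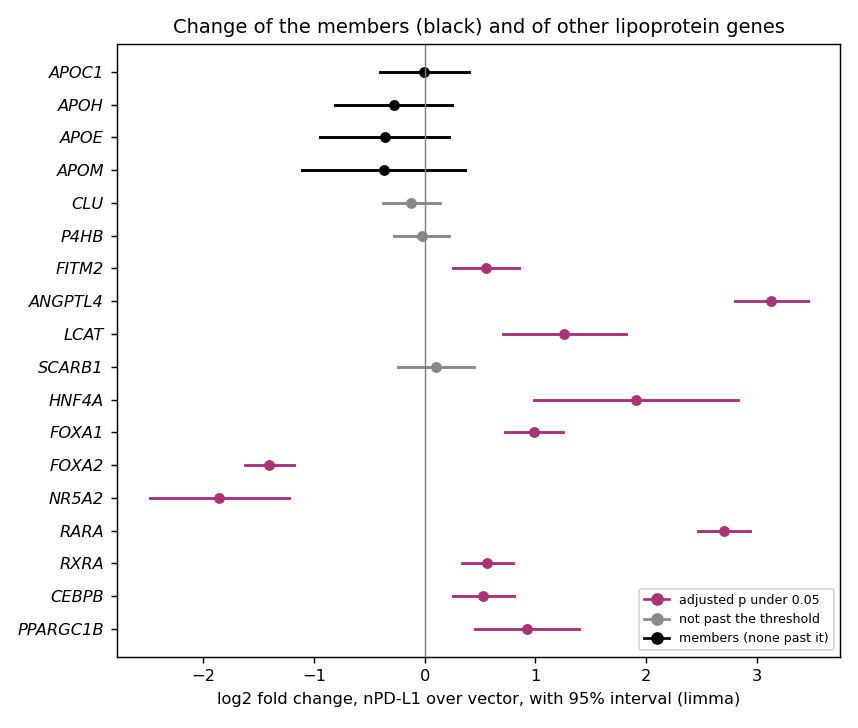
Log2 fold change of nPD-L1 over vector with its 95% interval (limma) for the 4 tested members (black) and 14 other lipoprotein genes, purple where the adjusted p was under 0.05. The intervals of APOC1, APOH, APOE and APOM all span 0, ANGPTL4 and RARA lie farthest to the right, and NR5A2 and FOXA2 to the left.

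The label of a hepatocellular line was checked against 10 hepatocyte markers, of which 9 had a row and AFP was not analysed here. The 3 fibrinogen genes were abundant, with FGA at 1861 to 3286, FGB at 962 to 1540 and FGG at 658 to 1129 scaled reads. ALB, TTR, TF and AHSG, in contrast, were at or under 3 reads in every library, like APOA1, APOA2, APOB and MTTP. With these defining markers near 0, the identity of the cells rests on the label, and the near-zero levels of the members are levels of cells so labelled. SERPINA1 held 7.91 to 41.4 and AMBP 13.5 to 70.0. The summed level of the 9 markers was 3705 to 6040 in the vector group and 3661 to 4242 in the nPD-L1 group.

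Of 5 fibroblast markers, 4 had a row and 2 were tested, and their sum was 165 to 245 in the vector group and 590 to 652 in the nPD-L1 group. COL1A1 carried this difference, at 82.8, 63.2 and 49.9 against 465, 445 and 487 scaled reads (log2 fold change 2.84, SE 0.19, adjusted p = 7.99e-06). LUM, the other marker tested, averaged 131.0 in the vector group and 137.1 with nPD-L1 (log2 fold change 0.10, limma adjusted p = 0.886). DCN and PDGFRA reached at most 5.04 and 9.10 scaled reads, so the rise was that of a single marker. The part of COL1A1 in the changes of ANGPTL4, LCAT and the transcription factors was not tested. The sums of enterocyte markers (31.2 to 46.3 and 33.6 to 41.5), endothelial markers (1.13 to 6.06 and 0.840 to 4.05) and leukocyte markers (3.03 to 15.8 and 5.79 to 10.1) overlapped between the groups, and PECAM1, VWF and PTPRC were at or under 3 reads in every library. In RNA from whole cultures, fewer cells of a type and less RNA per cell cannot be told apart.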

How the data were processed

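RNA of 6 libraries labelled Hep3B (3 vector, 3 nPD-L1, grouped and numbered by their sample titles) was sequenced by a company. Per the submitters' processing notes, CASAVA, HISAT2 2.0.5 and hg38 were used. The counter and strand setting are not given in the sources used here. The deposited values are a signal in scaled reads: the authors divided the reads of a gene by the size factor of each library, although the table calls them raw. Group means, fold changes and p-values of the authors in the same table were not used. All 27009 gene IDs matched GENCODE 29 (GRCh38).

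Groups were compared with limma (3.58.1, R 4.3.3; eBayes with trend and robust moderation) on log2(value + 1), since the values are not counts, so fold changes of low genes are understated. Tested were 15076 genes with at least 10 scaled reads in at least 3 libraries, with Benjamini-Hochberg adjustment over all of them, and a gene was called at an adjusted p under 0.05. edgeR (4.0.16) and DESeq2 (1.42.0) were run only on the 4 libraries whose values (100%, within 0.1 read) were whole multiples of 1 read. On simulated data of 15123 genes for this comparison, limma recovered 20% of genes changed 1.5-fold, 90% of those changed 2-fold, 78% of those changed 0.5-fold and 100% of those changed 4-fold, with 4% of 150 calls on unchanged genes. The simulation had no library that stood apart and no trend on gene length, and it pooled genes of different levels. These shares therefore need not hold for a single member here.

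Named were the 10 members, up to 5 called genes per list by size of change, genes needed for the members' biology, called genes within 200 kb, and the 5 genes of most similar pattern. Any other gene (the remaining called factors, neighbours, partners and markers) was named after its values were seen. Members and lists were chosen with earlier results of these data known. Alternatives were other pseudocounts, filters, scalings, thresholds, moderation, genes and tools, the replicate block, each library left out and, added after seeing the data, a trend on gene length (loess, span 0.3) removed. Results for some genes are not reported here.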

Additional observations from a re-analysis of the deposited data

How the results depend on the processing

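No tested member was called under any alternative run. APOC1 was the member whose sign turned most often: 0.0055 with trimmed mean of M values scaling, 0.074 with the length trend removed, and -0.18 to 0.23 with single libraries left out. APOH ranged from -0.43 to 0.0017 with single libraries left out, and turned without vector replicate 2. APOE (-0.67 to -0.14) and APOM (-0.74 to -0.05) stayed below 0 in all 19 alternatives. With single libraries left out, P4HB (-0.094 to 0.045) and SCARB1 (-0.014 to 0.27) turned sign without passing the test, and SCARB1 also on 4 libraries (-0.055 with limma, -0.071 with edgeR, -0.077 with DESeq2). The cause was not tested.

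Over all genes, 609 were called higher and 139 lower. The counts were 306 and 68 with a 2-fold threshold, 1436 and 710 unadjusted, and, on 4 libraries, 229 and 52 with limma, 207 and 46 with edgeR and 311 and 83 with DESeq2. With single libraries left out they ranged from 331 to 791 and from 76 to 242. In the 5 lists, 9 genes were called higher and 2 lower. These counts were 4 higher with a 2-fold threshold, 14 and 5 unadjusted, 3 higher with each tool on 4 libraries, and 4 to 11 higher with single libraries left out. ANGPTL4, RARA, FOXA1, FOXA2 and NR5A2 kept their calls in all 19 alternatives.

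The labels do not say whether the replicate numbers pair the libraries, and pairing was not tested. Deviations of same-numbered libraries from their group means correlated at -0.013, 0.23 and 0.13. Those of differently numbered libraries of the other group correlated at -0.22 to 0.079. With the number as a block, 927 genes were called higher and 258 lower, against 609 and 139 without it. No member was called with the block. Not every library correlated best with its own number.

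With 3 libraries a group, an exact permutation test cannot go below p = 0.1. The members near 0 had too few reads here to give a fold between groups. Without vector replicate 2 the SE was 0.11 for APOC1 and 0.18 for APOH, against 0.18 and 0.24 with all 6 libraries. For APOE and APOM it was 0.26 and 0.33 both with and without that library. What set these errors was not tested.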
